A study of Mus musculus with 8 samples.

Results

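A set of 8 genes was followed across the 8 RNA-seq libraries made from mouse embryonic stem cells: Gm23935, CT010467.1, Gm24270, Gm25911, Gm24187, Gm15564, Mir6236 and Lars2. They were selected on measured values, because their counts rose and fell together across these libraries, so their agreement is given as a description with no test. They are 8 of the 55291 genes in the count tables, and all 8 passed the expression filter together with 16363 other genes. CT010467.1 is the only one of them annotated as ribosomal RNA. Whether the reads on the other 7 came from ribosomal RNA was not tested, because no complete ribosomal RNA precursor sequence was used here.

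The cells were of 2 lines, DHX35-dTAG and GPATCH1-dTAG, both labelled E14, while the growth protocol speaks of R1 cells. In each line the named splicing factor carries a degron, a tag through which the compound dTAG-13 sends the protein to degradation, and the lines were grown from picked single colonies. Cells of either line received dTAG-13 at 200 nM or its solvent DMSO for 4 h, which gave 4 groups of 2 libraries, and no untagged line was used here. Ribosomal RNA was removed before the libraries were made, and human DLD-1 RNA was added to each sample. Nothing in the labels says that the 2 libraries of a group came from separate cultures, so the spread between them may be technical. Fewer cells of a kind and less RNA per cell cannot be told apart in such bulk samples.

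Ribosomal RNA makes up most of the RNA of a growing cell. RNA polymerase I transcribes the large nuclear precursor, which is cut and modified into mature ribosomal RNAs, while the mitochondrion makes its own pair from the genes mt-Rnr1 and mt-Rnr2. Sequencing of messenger RNA therefore starts with removal of ribosomal RNA or with selection of polyadenylated RNA. Genes that hold stretches resembling ribosomal RNA can be given reads from it, and many short genes annotated as miRNAs from sequence alone belong to repeated families. Lars2 encodes the leucyl-tRNA synthetase of mitochondria, and its cytosolic counterpart is encoded by a separate gene, Lars.

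Of the 8 genes, 4 are near-identical short genes annotated as miRNAs. A search of 141767 transcripts (GENCODE M21, GRCm38) for matches to Gm23935 within 12 edits found 6 genes, of which 4 are among the 8. Their sequences are shown because the count tables separate them although their letters hardly differ. Capitals mark bases that differ from Gm23935.

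Gm23935: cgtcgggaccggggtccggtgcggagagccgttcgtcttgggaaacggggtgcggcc
Gm24270: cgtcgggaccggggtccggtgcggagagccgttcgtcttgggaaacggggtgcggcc
Gm24187: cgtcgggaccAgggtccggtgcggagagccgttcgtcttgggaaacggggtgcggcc
Gm25911: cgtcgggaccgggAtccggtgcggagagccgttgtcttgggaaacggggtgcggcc

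Gm23935 (chr16:11144125-11144181, plus strand) lies in an intron of Zc3h7a, which runs on the opposite strand. Gm24270 (chr9:56223715-56223771, minus strand) lies in an intron of Peak1 on the same strand and has the same 57 bases. Gm24187 (chr13:9834469-9834525, minus strand) differs by G11A, with positions counted from 1 at the 5′ end of Gm23935. Gm25911 (chr1:167340369-167340424, minus strand) differs by G14A and delC34, a base of Gm23935 that is missing, which leaves 56 bases. Their GC content was between 71.4% and 73.7%.

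The other 4 genes are not members of this group of short genes. CT010467.1 (chr17:39846353-39848827, minus strand) overlaps Gm42418 on the opposite strand and AY036118 on the same strand. Neither of them is in the tables analysed here. Mir6236 (chr9:110281287-110281409, plus strand) is a 123-base miRNA hairpin. Its mature miRNA in RefSeq (GRCm38.p6) is shown with the seed, bases 2 to 8, in capitals, to place the annotated product beside a count that covers the whole hairpin.

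mmu-miR-6236: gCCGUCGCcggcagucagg

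Gm15564 (chr16:35966752-35983230, minus strand) is annotated as an antisense RNA and overlaps Parp9 and Kpna1 without sharing an exon with them. Lars2 (chr9:123366927-123462666, plus strand) is protein-coding. Of the 28 pairs among the 8 genes, 7 shared a run of 20 bases, namely the 6 pairs within the short family and the pair of Gm15564 and Lars2. Exon 2 of 4 of a Gm15564 transcript (chr16:35981725-35981795) matched the 3′ UTR of Lars2, in its exon 21 (chr9:123462049-123462119), over 71 bases with 1 edit and an identical stretch of 51 bases. A piece of 30 bases of that stretch, identical in both genes and therefore all in capitals, is shown because reads within it fit both genes.

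Gm15564 and Lars2: AATTCACCAAGCGTTGGATTGTTCACCCAC

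The counts of a library added up to between 12014203 and 14994173. The first DMSO replicate of DHX35-dTAG cells stood apart: its correlation with the other 7 averaged 0.982, against 0.992 to 0.993 for the rest. In it small nuclear and nucleolar RNAs reached 0.44% of the counts of all genes but the 8, against 0.133% to 0.169% elsewhere, and mitochondrial protein-coding genes 0.281%, against 0.768% to 1.32%. Embryonic stem cell markers were all 8 present, with a summed level that varied 1.13-fold, while of the 5 fibroblast markers Col1a2 and Col3a1 were at or near 0, and Col1a1 was at 1.04 to 2.35, Thy1 at 1.44 to 3.97 and Vim, which many cell types express, at 197 to 224 CPM relative to all other genes, that is, in counts per 1000000 counts on genes outside the 8. The mRNAs of the tagged genes did not pass the test on treatment in their own line, with log2 differences of 0.10 ± 0.094 for Dhx35 and 0.00 ± 0.13 for Gpatch1 (SE, edgeR quasi-likelihood test, adjusted p = 0.74 and 1.0), and the degron acts on protein.

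The 8 genes together took a share of the counts that varied 17.1-fold between libraries. In DHX35-dTAG cells the share was 3.2% and 1.57% in DMSO and 12.3% and 21.2% in dTAG-13. In GPATCH1-dTAG cells it was 4.3% and 22.2% in DMSO and 1.3% and 2.05% in dTAG-13. A pair of libraries of different lines and treatments, replicate 2 of DHX35-dTAG cells in dTAG-13 and replicate 2 of GPATCH1-dTAG cells in DMSO, thus had nearly the same high share. The 95% Wilson interval of each share was at most 0.04 percentage points wide and covers counting error only, so depth did not limit these values. The replicates of a group differed in the summed level by 1.6-fold to 6.36-fold, and 21% of the variance of the log2 level lay within groups.

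**Figure D1:**
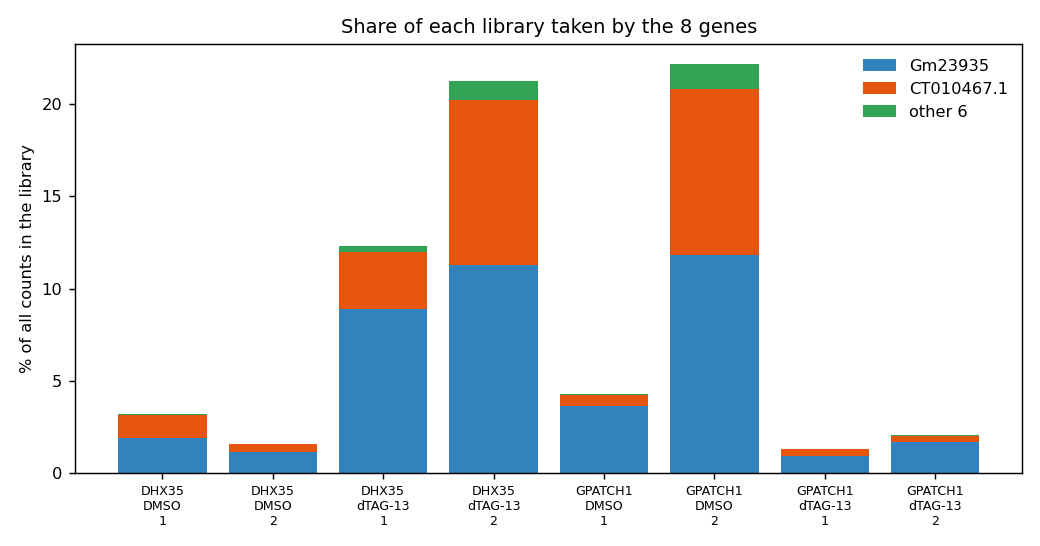
Share of all counts (%) taken by Gm23935, CT010467.1 and the other 6 genes, stacked for each of the 8 libraries, with line, treatment and replicate below each bar. The bars reach 22.2% and 21.2% in replicate 2 of GPATCH1-dTAG cells in DMSO and of DHX35-dTAG cells in dTAG-13, and 1.3% in the lowest library.

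Gm23935 and CT010467.1 carried nearly all of these counts, and the other 6 genes together held between 0.0237% and 1.35% of a library. In DHX35-dTAG cells Gm23935 had 237591 and 157001 counts in DMSO and 1069364 and 1490341 in dTAG-13. In GPATCH1-dTAG cells it had 533767 and 1580709 counts in DMSO and 134813 and 218764 in dTAG-13. Its counts were thus higher in dTAG-13 in the first line and lower in the second, with no overlap between groups in either. CT010467.1 had 164889 and 61174 counts in DMSO and 370461 and 1178059 in dTAG-13 in DHX35-dTAG cells. The GPATCH1-dTAG libraries had 86401 and 1204731 counts in DMSO and 55894 and 46494 in dTAG-13, so that the DMSO replicates differed 18.8-fold in CPM relative to all other genes.

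The ratio of Gm23935 to CT010467.1 was not fixed. It was lowest, at 1.27, in replicate 2 of DHX35-dTAG cells in dTAG-13 and highest, at 6.18, in replicate 1 of GPATCH1-dTAG cells in DMSO. Both libraries with the highest shares had low ratios, 1.27 and 1.31, and replicate 1 of DHX35-dTAG cells in DMSO, with a share of 3.2%, had 1.44. The order of the libraries also differed in part between the pair. Between replicate 1 of DHX35-dTAG cells and replicate 1 of GPATCH1-dTAG cells in DMSO, Gm23935 was higher in the latter, at 38000 against 19200 CPM relative to all other genes, and CT010467.1 was lower, at 6160 against 13300.

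The other 3 short genes had far fewer counts than Gm23935. Gm24270, with the same 57 bases, had 300 and 338 counts in DMSO and 7967 and 14775 in dTAG-13 in DHX35-dTAG cells. In GPATCH1-dTAG cells it had 2484 and 18840 counts in DMSO and 294 and 622 in dTAG-13. Per 1000 counts on Gm23935 there were 1.26 on Gm24270 in the lowest library and 11.9 in the highest. The ratio therefore changed 9.44-fold between genes whose letters are identical. The lowest library here was the one that stood apart, and the next lowest ratio was 2.15 per 1000, in replicate 2 of DHX35-dTAG cells in DMSO. A further gene with these 57 bases, Gm24245 on chromosome 4, had 8 and 10 counts in the dTAG-13 libraries of DHX35-dTAG cells and 9 in replicate 2 of GPATCH1-dTAG cells in DMSO, the 3 libraries that were highest for all 8 genes, and 0 to 2 in the other 5.

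Gm25911 had 747 and 395 counts in DMSO and 2569 and 2763 in dTAG-13 in DHX35-dTAG cells. The counts in GPATCH1-dTAG cells were 1192 and 2900 in DMSO and 471 and 660 in dTAG-13. It kept closest to Gm23935, with 1.83 to 3.49 counts per 1000. Gm24187 had 59 and 86 counts in DMSO and 646 and 1437 in dTAG-13 in DHX35-dTAG cells. In GPATCH1-dTAG cells it had 187 and 1761 counts in DMSO and 51 and 99 in dTAG-13. Counts within this family are uncertain gene by gene, since how the authors' counting placed reads that fit several copies is not given in the sources used here.

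Mir6236, Gm15564 and Lars2 had the steepest changes beside Gm24270. Mir6236 had 514 and 219 counts in DMSO and 2321 and 13004 in dTAG-13 in DHX35-dTAG cells. Those in GPATCH1-dTAG cells were 472 and 18853 in DMSO and 255 and 253 in dTAG-13. The lower DMSO replicate of GPATCH1-dTAG cells was near the levels in the DHX35-dTAG DMSO libraries, and its partner was 54-fold above it after scaling. Gm15564 had 195 and 95 counts in DMSO and 1042 and 4504 in dTAG-13 in DHX35-dTAG cells, and 236 and 6147 in DMSO and 117 and 155 in dTAG-13 in GPATCH1-dTAG cells. Its highest library was again replicate 2 of GPATCH1-dTAG cells in DMSO.

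Lars2 had 3887 and 2911 counts in DMSO and 24191 and 98224 in dTAG-13 in DHX35-dTAG cells. In GPATCH1-dTAG cells it had 5483 and 131874 counts in DMSO and 2372 and 2855 in dTAG-13. An mRNA gene thus changed 79.2-fold between libraries in CPM relative to all other genes. Lars, its cytosolic counterpart, changed 1.2-fold on that scale, and the ratio of Lars2 to Lars counts ran from 0.587 to 49.9. The counts of Lars2 and Gm15564 kept a nearer ratio, between 18.4 and 30.6, and those of Lars2 and Mir6236 one between 6.99 and 13.3. AA474408, which holds the shared 71-base exon with 10 edits, had 19 to 36 counts in every library.

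**Figure D2:**
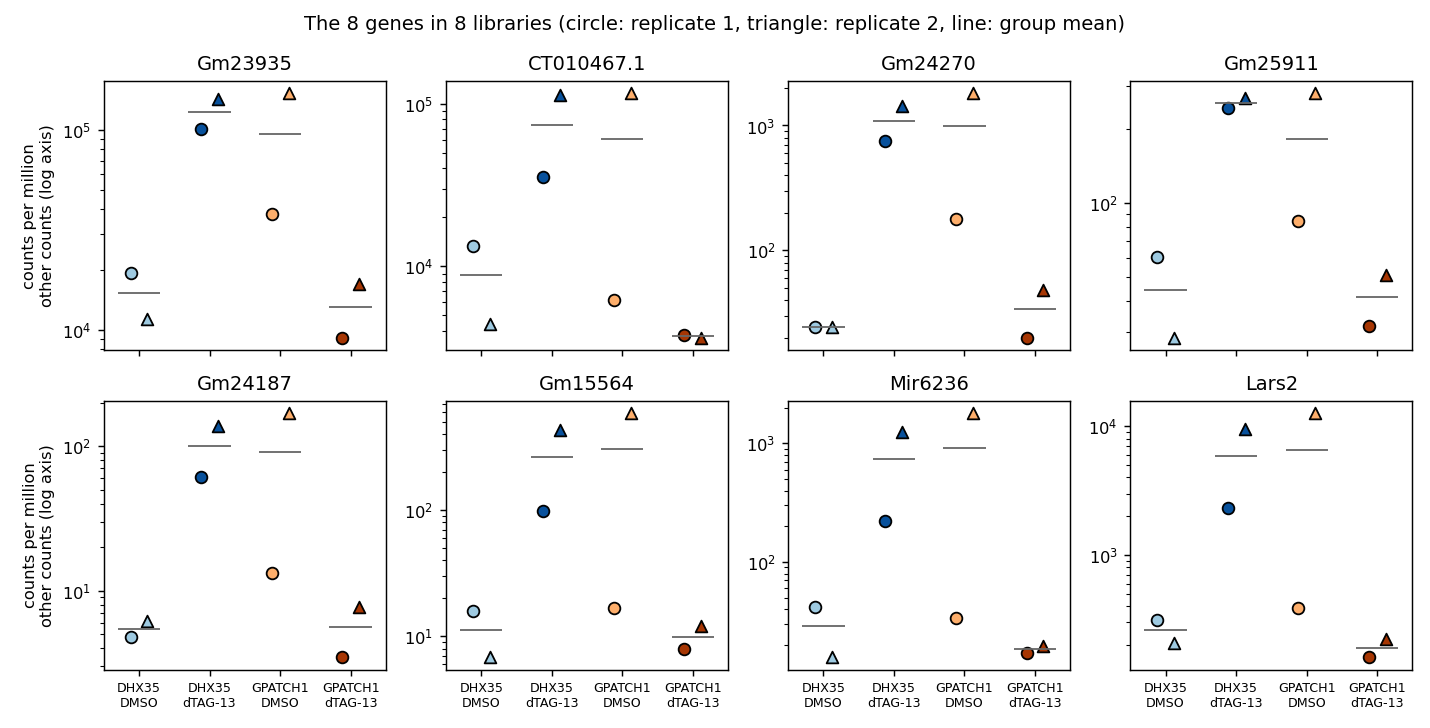
Level of each of the 8 genes in CPM relative to all other genes (log axis) in the 4 groups, with a circle for replicate 1, a triangle for replicate 2 and a line at the group mean. All 8 genes are highest in replicate 2 of GPATCH1-dTAG cells in DMSO and share the same 3 highest libraries.

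All 8 genes ordered the top of the libraries alike. Replicate 2 of GPATCH1-dTAG cells in DMSO was the highest for 8 of 8 genes, and the same 3 libraries were the highest for each. Every gene was higher in both dTAG-13 than in both DMSO libraries of DHX35-dTAG cells, and lower in GPATCH1-dTAG cells, after TMM scaling. Such a pair of separations in opposite directions held for 518 of 16371 genes, or 3.16%, and nothing is read from the 8 genes' count, since they were chosen on these values.

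The fitted differences of the 8 genes were large in both lines, with wide errors. In DHX35-dTAG cells the log2 difference of dTAG-13 from DMSO was between 2.53 (Gm25911) and 5.50 (Gm24270), with a median of 4.35 against -0.01 over all 16371 genes. In GPATCH1-dTAG cells it was between -5.64 (Mir6236) and -2.12 (Gm25911), with a median of -4.45 against 0.00. In DMSO the GPATCH1-dTAG libraries were above the DHX35-dTAG libraries by a median of 4.36, against -0.01. The GPATCH1-dTAG values rested largely on replicate 2 in DMSO. Without it the log2 difference in the GPATCH1 depletion was between -2.36 (Gm24270) and -0.72 (CT010467.1), with -0.74 for Gm15564, -0.85 for Mir6236 and -1.02 for Lars2. The line difference was then between -0.52 (CT010467.1) and 2.88 (Gm24270), with 0.25 for Mir6236, 0.59 for Lars2 and 0.60 for Gm15564. In the DHX35 depletion, leaving out replicate 2 in dTAG-13 gave 1.98 for CT010467.1 and 2.94 for Mir6236, against 3.08 and 4.70. For Lars2 the group means were 262 ± 74.9 and 5870 ± 5060 CPM relative to all other genes (SD, n = 2) in DMSO and dTAG-13 in DHX35-dTAG cells. In GPATCH1-dTAG cells they were 6540 ± 8700 and 191 ± 43.4, so that the SD of the higher group was near or above its mean.

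The main edgeR fit used all 8 libraries, the expression filter, TMM and no replicate block. In its quasi-likelihood test none of the 8 genes passed an adjusted p of 0.05. That test called 0 of 16371 genes (0%) for the DHX35 depletion, 0 (0%) for the GPATCH1 depletion, 0 (0%) for the difference of the 2 responses and 15 (0.0916%) for the line difference in DMSO. At an unadjusted p under 0.05 it counted 882, 486, 639 and 2116 genes. DESeq2 called 1 gene (0.00611%), 0 (0%), 9 (0.055%) and 47 (0.287%) for the same comparisons, with 1, 0, 8 and 1 of the 8 genes among them. The members called by edgeR depended on single libraries. Without the library that stood apart, the test called 2, 8, 8 and 3 of the 8 genes, among 2, 51, 9 and 121 genes in all. Without the other DMSO library of DHX35-dTAG cells it called 7, 8, 8 and 7, among 4947, 51, 3588 and 5886. Without replicate 1 of GPATCH1-dTAG cells in DMSO it called 1, 1, 7 and 4, among 1, 1, 7 and 12, and without replicate 2 of that group 1, 0, 1 and 0, among 1, 0, 1 and 4. These counts of members are given as a description, because the members were chosen on values of the same libraries.

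Over the 8 libraries the 28 pairs of genes had a median Pearson r of 0.962 and a median Spearman rho of 0.952 on log2 levels. The lowest r, 0.893, joined CT010467.1 and Gm24270. Without the 2 libraries farthest from the median of the summed level the median r was 0.946 and the lowest 0.707, and without the library that stood apart the median was 0.982. The points share 1 scaling, and the near-identical genes share sequence. Within the short family the median r was 0.98, among the other 4 genes 0.991, and between these sets 0.946.

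**Figure D3:**
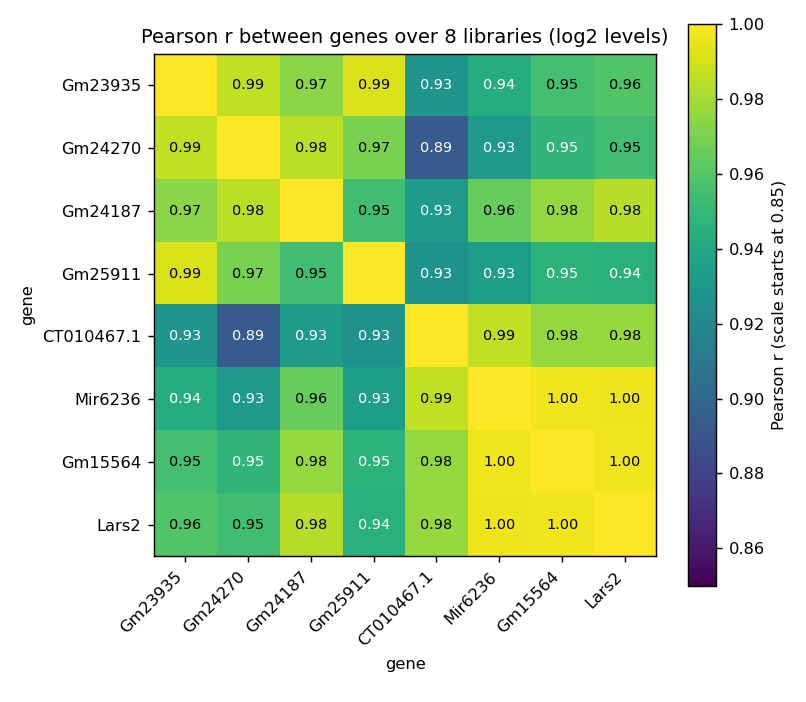
Pearson r of log2 levels (CPM relative to all other genes, pseudocount 1) over 8 libraries for each pair of the 8 genes, on a colour scale that starts at 0.85. The first 4 rows are the near-identical short genes, and the lowest value, 0.89 after rounding, joins CT010467.1 and Gm24270.

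The genes differed in how steeply they moved. The slope of a gene's log2 level on the log2 level of the other 7 summed was 0.72 ± 0.11 (SE) for Gm23935 and 0.74 ± 0.053 for Gm25911. It was 1.15 ± 0.11 for Gm24187 and 1.17 ± 0.18 for CT010467.1. Steeper slopes belonged to Gm15564, at 1.37 ± 0.12, Lars2, at 1.41 ± 0.12, Gm24270, at 1.48 ± 0.15, and Mir6236, at 1.5 ± 0.14. The first pair, the second pair and the last 4 differed among themselves by no more than their errors, and a fixed proportion would give a slope of 1. The sum differs from gene to gene, since it leaves out the gene itself, so alike slopes need not mean alike steepness. On the level of Gm23935 alone the slope of Gm25911 was 0.811 ± 0.042.

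The ratios of Lars2 and its 2 closest companions to CT010467.1 were not fixed. Per 1000 counts on CT010467.1, Lars2 had 23.6 counts in replicate 1 of DHX35-dTAG cells in DMSO and 109 in replicate 2 of GPATCH1-dTAG cells in DMSO. Mir6236 ran from 3.12 to 15.6 and Gm15564 from 1.18 to 5.1 between the same libraries. The lowest values thus all came from the library that stood apart. The next lowest were 42.4 for Lars2, 3.58 for Mir6236 and 1.55 for Gm15564. Slopes of log2 levels on CT010467.1 were 1.18 ± 0.1 (SE) for Lars2, 1.28 ± 0.09 for Mir6236 and 1.16 ± 0.11 for Gm15564, where a fixed proportion would give 1. A straight line of Lars2 on CT010467.1 levels over the 8 libraries had a slope of 99.7 per 1000, and of 65.4 per 1000 without the 2 farthest libraries.

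**Figure D4:**
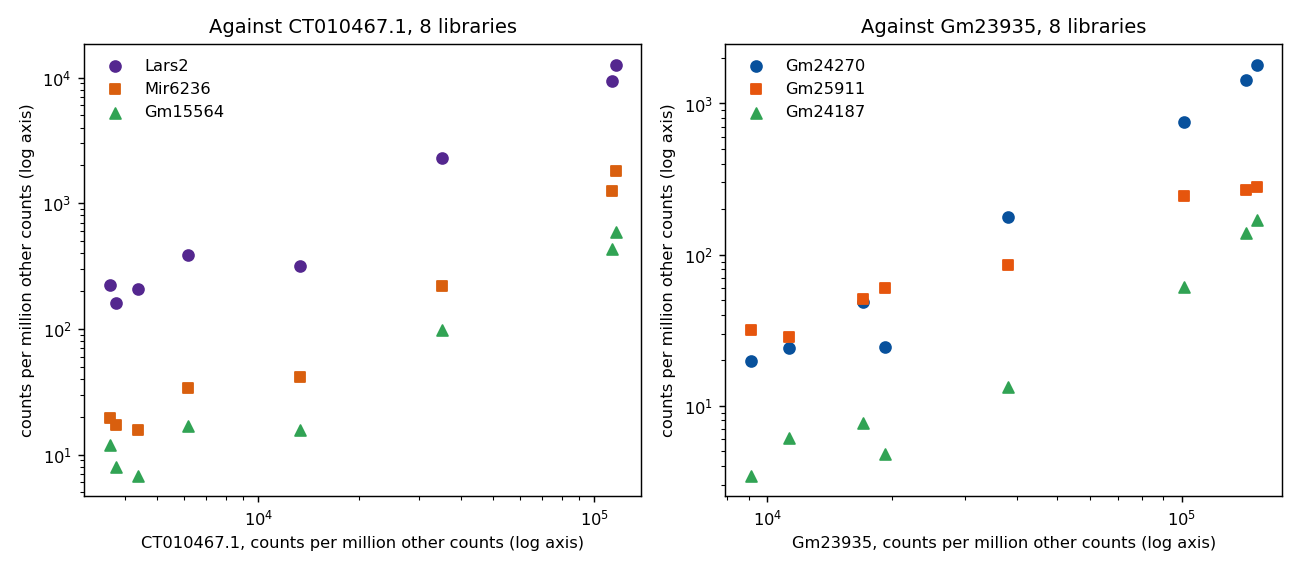
Levels in CPM relative to all other genes (both axes log) in 8 libraries. Left, Lars2, Mir6236 and Gm15564 against CT010467.1, and right, Gm24270, Gm25911 and Gm24187 against Gm23935. On the right Gm25911 has the shallowest rise. Gm24270 changes 9.44-fold relative to Gm23935, with the lowest ratio in the library that stood apart.

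Few of the other genes with a mean CPM of at least 1 followed this pattern. Of these 14615 genes, 4 had a slope of at least 0.25 on the summed level of the 8 genes, none had one of at least 0.5, and none had one of -0.25 or below. Among the 8 genes the lowest slope, taken on the sum of the other 7, was 0.719. The 4 were mt-Rnr1, the small mitochondrial ribosomal RNA, at 0.393 with r = 0.819, the pseudogene Gm10925 at 0.274 with r = 0.654, mt-Atp6, a subunit of the mitochondrial ATP synthase, at 0.253 with r = 0.646, and the small nuclear RNA Gm22513 at 0.288 with r = 0.565. Gm10925 and mt-Atp6 rested on few counts, 4 to 56 and 2 to 44 per library, against 2085 to 8849 for mt-Rnr1 and 571 to 3579 for Gm22513. The library that stood apart was the lowest for Gm10925 and mt-Atp6, at 0.324 and 0.162 CPM relative to all other genes, and the highest for Gm22513, at 290.0. Genes under a mean CPM of 1, such as Gm24245, were not examined for likeness. No other gene met the rule for likeness, so fewer than the planned 8 are named, and none met the rule for the opposite pattern. Without the library that stood apart their r was 0.904, 0.881, 0.921 and 0.948, and without the 2 farthest libraries it was 0.507, 0.46, 0.385 and 0.403.

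Other ribosomal RNA genes moved less. In CPM relative to all other genes, mt-Rnr1 was at 546 and 254 in DMSO and 331 and 851 in dTAG-13 in DHX35-dTAG cells, and at 294 and 739 in DMSO and 141 and 284 in dTAG-13 in GPATCH1-dTAG cells. It was high in the same 2 libraries as the 8 genes, but its groups overlapped in DHX35-dTAG cells. The large mitochondrial ribosomal RNA mt-Rnr2 ran from 4560 to 10200, a 2.24-fold range, and was also highest in these 2 libraries, at 9870 and 10200. Rn5s was at 0 in every library, and the other 7 genes of the ribosomal RNA list are not in the tables analysed here. The 353 further genes annotated as ribosomal RNA added up to between 82 and 174 counts per library, with 97 of them above 0 in any library. Relative to all other genes their sum was 14.7 and 15.5 CPM in the same 2 libraries, against 6.64 to 12.5 elsewhere. On the log2 scale its correlation with the summed level of the 8 genes over the 8 libraries was r = 0.464, and r = 0.668 without the library that stood apart, given as a description.

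The genes around the 8 did not share their range. On the same scale Zc3h7a, the host of Gm23935, varied 1.14-fold and Peak1, the host of Gm24270, 1.57-fold, while Parp9 and Kpna1, which overlap Gm15564, varied 1.28-fold and 1.45-fold. Of 16 neighbouring genes, 13 reached a mean CPM of 1, and these varied between 1.11-fold and 1.89-fold, with slopes from -0.039 to 0.034. Hosts and neighbours were chosen after the values of the 8 genes were known.

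The genes that make ribosomal RNA were read from lists, and their counts of calls say nothing about a list, because edgeR called 0%, 0%, 0% and 0.0916% of all genes in the 4 comparisons. The 15 genes of the RNA polymerase I list had no call and a summed level that varied 1.05-fold. Its largest differences between the 2 responses were 0.28 ± 0.16 for Taf1a, a part of the polymerase I selectivity factor, and 0.28 ± 0.18 for Ubtf, which binds ribosomal DNA (log2, SE, edgeR adjusted p = 0.86 for both). The 66 tested ribosomal RNA processing genes had no call and a summed level that varied 1.1-fold, with values of -0.85 ± 0.55 for Nop10, of the box H/ACA particles that guide pseudouridylation, and 0.46 ± 0.26 for Emg1, a ribosomal RNA methyltransferase (adjusted p = 0.86 for both). The library that stood apart was the extreme one for Nop10, at 21.6 against 53.6 to 75.1 CPM relative to all other genes elsewhere, for Emg1, at 228 against 138 to 165, and for Ubtf, at 528 against 387 to 419. The 16 other mitochondrial aminoacyl-tRNA synthetases had no call and a summed level that varied 1.15-fold, with 0.41 ± 0.19 for Vars2 and 0.30 ± 0.16 for Tars2, the enzymes for valine and threonine, and Lars was at 0.24 ± 0.13 (adjusted p = 0.86 for all). All 3 were highest in the library that stood apart, Vars2 at 54.5 against 39.3 to 52.2, Tars2 at 124 against 93.5 to 110.0 and Lars at 284 against 236 to 273 CPM relative to all other genes.

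The marker lists of cell types had no call, beside 0% of all genes called for the difference of responses. The 8 stem cell markers had a median log2 difference between the responses of -0.07, with 0.69 ± 0.31 for Dppa5a and 0.32 ± 0.20 for Pou5f1 (SE, edgeR adjusted p = 0.86), both highest in the library that stood apart, where Dppa5a was at 1200 against 547 to 667 and Pou5f1 at 1190 against 764 to 912 CPM relative to all other genes. The 3 tested fibroblast markers had a median of 0.24, with 0.44 ± 0.44 for Thy1 and 0.24 ± 0.62 for Col1a1 (adjusted p = 0.87 and 0.94), both again highest in that library, where Thy1 was at 3.97 against 1.44 to 2.72 and Col1a1 at 2.35 against 1.04 to 1.73. The 3 tested primitive endoderm markers had a median of -0.17, with -0.42 ± 0.47 for Gata4 and 0.26 ± 0.50 for Gata6 (adjusted p = 0.87 and 0.92), and their summed level stayed between 3.97 and 7.07 CPM relative to all other genes.

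The scaling of the libraries moved with the share of the 8 genes. TMM factors, which correct total counts for such abundant genes, ran from 0.849 to 1.10 and fell as the share rose (r = -0.993 and rho = -0.952 over 8 libraries, and r = -0.958 without the 2 farthest). With the 8 genes removed first, the factors lay between 0.989 and 1.02. Removal moved the log2 difference of any other gene by at most 0.0052. Scaling by total counts alone instead shifted the median gene by -0.24 in the DHX35 depletion, by 0.16 in the GPATCH1 depletion and by 0.40 in the difference of the responses.

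**Figure D5:**
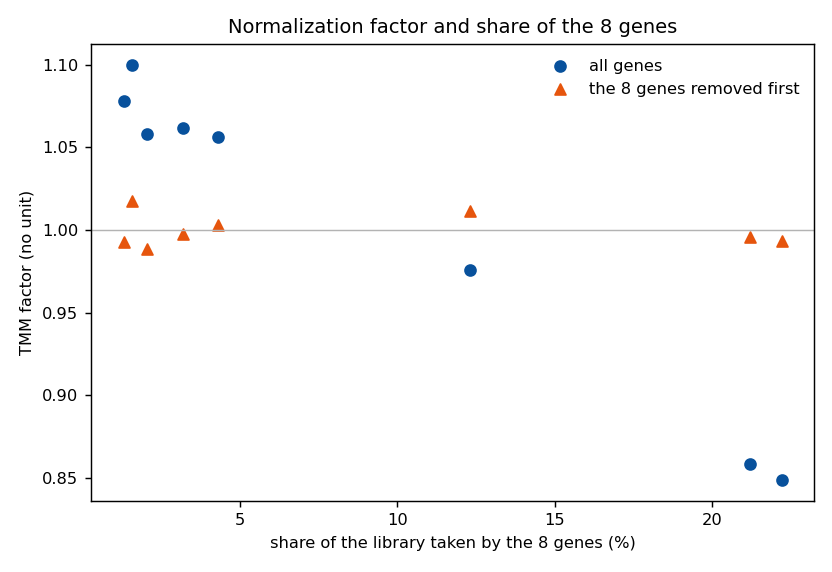
TMM factor of each of 8 libraries (no unit) against the share of the library taken by the 8 genes (%), with circles for factors from all genes and triangles for factors after the 8 genes were removed. Circles fall from 1.10 to 0.849 as the share rises, and triangles stay between 0.989 and 1.02.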

How the data were processed

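The authors trimmed paired reads with Trim Galore 0.6.6 and aligned them with STAR 2.7.5c to mm10 and hg19, and deposited 1 table of raw counts for each library. The counting program, annotation and strand setting are not given in the sources used here, so overlapping and antisense genes are uncertain. The counts were read as deposited. Symbols were matched to GENCODE M21 (53292 of 55291). Levels are CPM relative to all genes but the 8, with a pseudocount of 1 on the log2 scale. The quasi-likelihood test of edgeR 4.0.16 (R 4.3.3) was used for group differences (TMM, filterByExpr, 1 term per group, all 8 libraries, Benjamini-Hochberg adjustment, threshold 0.05) on 16371 genes. SE is the log2 difference divided by the square root of F. DESeq2 1.42.0 was an alternative.

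The 8 genes and all lists were chosen with earlier results of these data known. Named genes were the 8, up to 8 others with the highest r and a slope of at least 0.25 on their summed level and 3 with the lowest, measured ribosomal RNA genes, Lars, and the 2 genes of each other list with the largest difference of responses. On simulated counts, 135 of 200 genes changed 2-fold were called for the DHX35 depletion, beside 14 unchanged genes. For the difference of responses 169 of 200 were called, beside 15 unchanged genes. The simulation held no library that stood apart, so these counts do not give the power of the test in these data. Replicates of a group were not duplicates (chi-square per gene 5.49 to 139). This value covers all genes including the 8 and is scaled by total counts, so the gaps of the 8 genes enter it.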

Additional observations from a re-analysis of the deposited data

Results flagged for a closer look

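All 8 genes moved in opposite directions in the 2 lines, up in both dTAG-13 libraries of DHX35-dTAG cells and down in both of GPATCH1-dTAG cells relative to DMSO. The difference of the responses, GPATCH1 minus DHX35 on the log2 scale, was -5.87 for Gm23935, -7.12 for CT010467.1, -10.36 for Gm24270, -4.65 for Gm25911, -8.23 for Gm24187, -9.51 for Gm15564, -10.34 for Mir6236 and -9.59 for Lars2. Without replicate 2 of GPATCH1-dTAG cells in DMSO it was -4.54, -3.80, -7.87, -3.55, -5.46, -5.33, -5.56 and -5.52 for these genes in the same order. The interaction term in the main edgeR fit called 0 of the 8 at an adjusted p of 0.05, and 0% of 16371 genes. DESeq2 called 8 of the 8, and 9 genes in all (0.055%), with adjusted p between 1e-06 for Gm24270 and 0.042 for CT010467.1. Since the genes were chosen on these libraries, neither count is independent evidence. Replicates within a group differed up to 54-fold, and what set the level of a library was not tested.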

How the results depend on the processing

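The median correlation and the 8 slopes moved by less than their own spread under every alternative run. The summed shares are counts over total counts, so filter, scaling and test could not change them. Leaving out 1 library gave medians of 0.95 to 0.982. Of 384 member log2 differences under the alternatives, 383 kept their sign. The exception was CT010467.1 between the lines in DMSO, 2.80 with all libraries and -0.52 without replicate 2 of GPATCH1-dTAG cells in DMSO, and that library accounted for all 24 differences that moved by more than the replicate SD. A kept sign does not mean a kept size, since without that library the members' log2 differences in the GPATCH1 depletion were between -2.36 and -0.72.

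Counts of calls, in the order DHX35 depletion, GPATCH1 depletion, difference of responses and line difference, depended on the fit. Without an expression filter they were 345, 21, 140 and 986, and with total counts in place of TMM 318, 10, 179 and 701. In both, edgeR's prior degrees of freedom were infinite, against 5.01 with all libraries, the filter and TMM and 3.49 to 18.9 under the other alternatives with the default prior, so a gene's own replicate spread did not enter its test, and the 8 of 8 members called there say nothing about the members. With a robust prior, an alternative added after seeing the data like the total counts, 83, 3, 15 and 740 genes were called without a filter and 238, 0, 93 and 632 with total counts, with 0 members in each. DESeq2 gave 1, 0, 9 and 47. The 4 compared libraries alone gave 1, 127 and 2 for the depletions and the line difference, the 127 with 8 members and a prior of 18.9 degrees of freedom. At least 10 counts in every library left 4 calls for the line difference. Leaving out 1 library gave 0 to 4947, 0 to 51, 0 to 3588 and 4 to 5886 calls. The highest counts, except the 51 reached by leaving out either DMSO library of DHX35-dTAG cells, came when the second DMSO replicate of DHX35-dTAG cells was left out, which leaves the library that stood apart as the only control, assumed to vary like the other groups. Without that library, replicate 1, the counts were 2, 51, 9 and 121.

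The replicate numbers were not taken to pair the libraries. The labels tie them to no shared culture or day, each group has 2 libraries, and the correlations of replicate differences between groups ran from -0.002 to 0.292, with 4 of 6 above 0.1. A replicate block gave 2 calls for the difference of responses, 1 of them Gm24270, and moved no other count by over 1.5 times.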
